A study of Caenorhabditis elegans with 2 samples.

Results

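The proteins of the large subunit of the cytosolic ribosome are encoded in Caenorhabditis elegans by genes named rpl- or rla-. They were taken as the nuclear protein-coding genes of the Ensembl WBcel235 annotation whose symbol begins with either prefix and a digit. This rule found 50 of the 19973 nuclear protein-coding genes, on all 6 nuclear chromosomes. For each of them the strongest peak was taken whose summit lay from 1000 bp upstream to 500 bp downstream of an annotated transcript start, called the start window here. The peaks came from chromatin immunoprecipitation and sequencing (ChIP-seq) of NHR-90, a nuclear hormone receptor, in a line that stably expresses it with a C-terminal GFP tag, strain OP484. Whole hermaphrodites were harvested as young adults, 64 h after they had been synchronized as starved L1 larvae, and the chromatin was recovered with an antibody against GFP. The labels also give the tag as GFP with FLAG, and their antibody field reads nhr-90. There were 2 biological replicates of this single group and no second group, so no test between groups of samples was possible and every share below is a description. The promoter that drives the transgene, the cells in which the tagged protein is present and the numbers of reads stand in no source used here, and the control experiment named by the labels was not analysed.

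The large subunit of the cytosolic ribosome joins amino acids in its peptidyl transferase centre and releases the growing chain through an exit tunnel. Its RNA does the chemistry, and its proteins shape the centre, line the tunnel, bind translation factors through a flexible stalk and anchor the 5S RNA particle. Their genes are short and strongly transcribed in growing animals, and in many species they are regulated together. Nuclear hormone receptors bind DNA through zinc fingers, and this family is greatly expanded in nematodes.

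A peak that passed the authors' threshold on the irreproducible discovery rate (IDR, which measures how alike the replicates rank a peak) stood at the start of 14 of the 50 large-subunit genes, or 28%. Over all nuclear protein-coding genes the share was 3.62%, or 723 genes. The genes were rpl-3, rpl-15, rpl-20, rpl-35, rpl-12, rpl-41.2, rpl-7A, rpl-5, rpl-32, rpl-24.2, rpl-11.2, rpl-31, rla-1 and rpl-7, in order of signal. The genes of the small cytosolic subunit had such a peak at 9 of 31 starts (29%). The share was 1 of 41 (2.44%) for the large subunit of the mitochondrial ribosome, which is made by a separate set of proteins, and 0 of 18 for ribosome assembly factors. The shares for both cytosolic subunits thus lay close together and above that of all genes.

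Each replicate taken alone gave the same count. Among the 1441 strongest peaks of replicate 1, as many as the IDR list holds, a summit lay at the start of 14 of 50 large-subunit genes (28%), against 3.74% of all genes. Among the 1441 strongest of replicate 2 the count was again 14 of 50, against 3.49% of all genes. The genes were partly different: rpl-1 and rpl-30 entered and rpl-11.2 and rpl-24.2 dropped out in replicate 1, while rpl-25.2, rpl-30 and rpl-43 entered and rla-1, rpl-7 and rpl-7A dropped out in replicate 2. A start peak among the strongest of both replicates was found at 10 of the 50, against 2.44% of all genes. At rpl-30 the peaks of the replicates are different ones, and with overlapping peaks required the count was 9, against 2.32%. These counts follow the number of peaks taken. In the 720 IDR peaks with the highest signal the count was 6 (1.69% of all genes), and for both replicates it was 5 among the 720 strongest peaks of each (1.21% of all genes) and 18 among the 2882 strongest (4.9%).

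**Figure D1:**
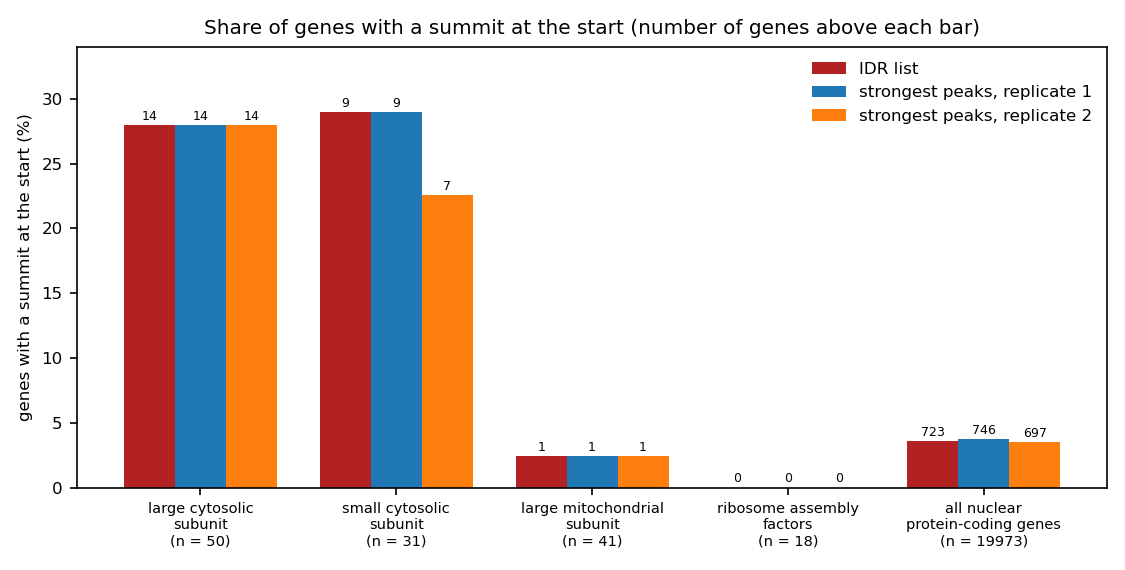
Percentage of genes (vertical axis) with a summit in the start window, for 5 gene lists (horizontal axis), in the IDR list and in the 1441 strongest peaks of each replicate. Both cytosolic subunits reach 22.6% to 29%, the large mitochondrial subunit 2.44% and all nuclear protein-coding genes 3.49% to 3.74%.

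The signal given here is the authors' value for each peak. Its scale is not stated, so it ranks peaks within a list only. The list called from both replicates together (the pooled list, 30000 peaks) was deposited as peaks and background, so its lower peaks may be background. It placed a summit at the start of 44 of the 50 genes (88%), against 42% of all genes. In the same list the share was 96.8% for the small cytosolic subunit, 88.9% for assembly factors and 75.6% for the large mitochondrial subunit. A share above that of all genes in the pooled list was thus not particular to the cytosolic ribosome. Summits stood at 46 of the 50 starts in the list of replicate 1 (92%), against 42.3% of all genes. In the list of replicate 2 they stood at 45 (90.0%), against 41.8%. Assembly factors had 94.4% in each replicate list. The large mitochondrial subunit had 78% in replicate 1 and 80.5% in replicate 2, and the small cytosolic subunit 90.3% and 93.5% in the same order. The median pooled signal of the 44 genes was 72.2, with a range of 23.8 to 856, against a median of 34.2 over the 8390 genes with a pooled peak. For the small cytosolic subunit the median was 59.6, for assembly factors 40.2 and for the large mitochondrial subunit 34.6.

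**Figure D2:**
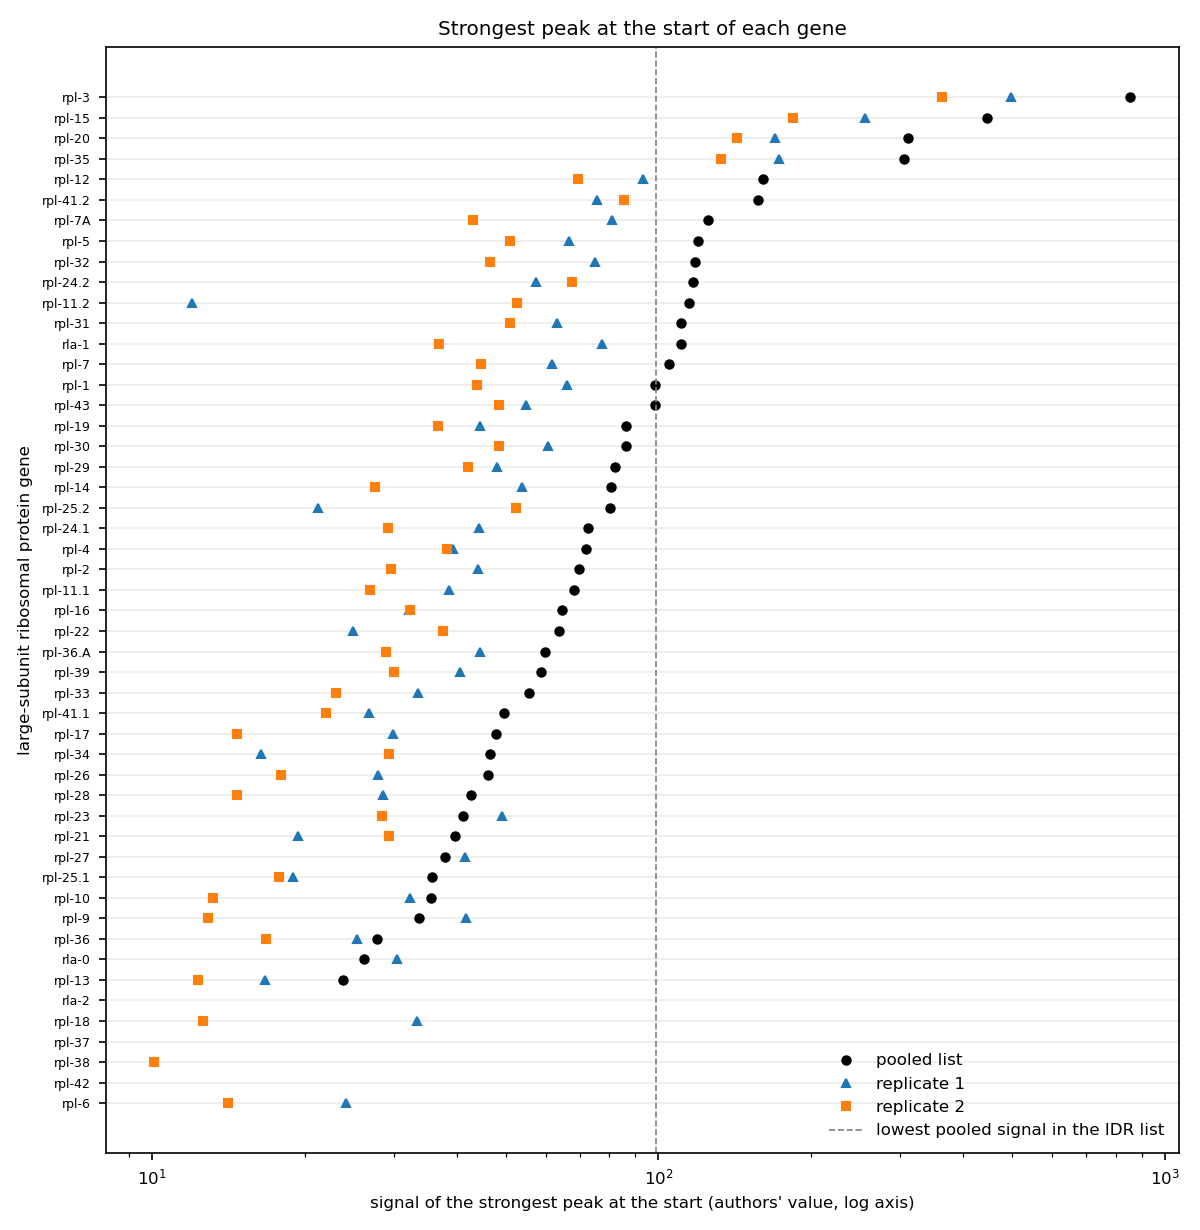
Signal of the strongest peak in the start window (horizontal log axis, authors' value) in the pooled list and in each replicate list, for the 50 large-subunit genes (vertical axis, ordered by pooled signal). The dashed line is the lowest signal in the IDR list, 98.9. Signals fall from 856 at rpl-3 to 306 at rpl-35, then step down to 161 at rpl-12.

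The IDR peaks of the 14 genes divided into a strong and a weak set. Pooled rank was 11 for rpl-3, 28 for rpl-15, 95 for rpl-20 and 99 for rpl-35, whereas the other 10 genes all ranked after 500. The median signal of the 14 was 122, against 136 over the 723 genes with an IDR peak, so most of these peaks were not unusually strong once in the list.

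The peak at rpl-3 (WBGene00004414, chrIII:3867854-3869587, plus strand) had the highest signal on the nuclear chromosomes. RPL-3 reaches with a long extension towards the peptidyl transferase centre. Its pooled signal was 856, and it had 496 in replicate 1 (rank 5) and 363 in replicate 2 (rank 18). The peak spanned chrIII:3867375-3867808, and its summit lay 267 bp upstream of the start, outside any protein-coding gene.

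The next was at rpl-15 (WBGene00004427, chrIV:653480-654576, minus strand), which encodes a structural protein of the large subunit and hosts the snoRNA genes K11H12.12 and K11H12.13. It had a pooled signal of 445, with 256 in replicate 1 (rank 22) and 184 in replicate 2 (rank 39). The summit lay 348 bp upstream, and no tRNA, snoRNA or snRNA gene was within 100 bp of it. The peak at rpl-20 (WBGene00004432, chrIV:4749123-4749778, minus strand), another structural protein, had a pooled signal of 311, with 170.0 in replicate 1 (rank 105) and 143 in replicate 2 (rank 73). It lay 288 bp upstream. At rpl-35 (WBGene00004449, chrIII:7855134-7855646, plus strand), whose product sits at the mouth of the exit tunnel, the pooled signal was 306, with 173 in replicate 1 (rank 101) and 133 in replicate 2 (rank 94). This summit lay 448 bp upstream, the farthest upstream of the 14. The 4 genes stood in the same part of both replicate rankings, and in each replicate their signals did not overlap those of the other 46. They were picked by pooled signal, which comes from the same 2 replicates, so this is no separate support.

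These 4 peaks were also narrow. They were 434, 344, 294 and 253 bp wide for rpl-3, rpl-15, rpl-20 and rpl-35, while the other 10 were all 450 bp wide. Width went with rank in the IDR list as a whole. Most nuclear IDR peaks of similarly high rank were under 450 bp wide, and most low-ranked ones were 450 bp wide. The contrast between the 4 and the 10 thus repeats their split by rank and is no separate feature of these genes. Over all ranks, a width under 450 bp was found at 28.6% of the 14 genes, against 34.6% of the 723. Narrow peaks were thus no larger a share here than over all genes with an IDR peak.

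The DNA at the 4 strongest summits is shown because these windows share 2 words of 7 bases. Each is the 100 bp centred on the summit, read 5′ to 3′ on the strand of the gene from the WBcel235 assembly, the build that ce11 coordinates follow. The windows are chrIII:3867537-3867636 (plus strand) for rpl-3, chrIV:654874-654973 (minus) for rpl-15, chrIV:4750016-4750115 (minus) for rpl-20 and chrIII:7854636-7854735 (plus) for rpl-35. Capitals mark the words AACACGC, which reads as GCGTGTT on the opposite strand, and AAGTGTA, which reads as TACACTT there.
rpl-3: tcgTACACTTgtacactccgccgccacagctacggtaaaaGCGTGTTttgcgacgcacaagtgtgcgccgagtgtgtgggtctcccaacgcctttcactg
rpl-15: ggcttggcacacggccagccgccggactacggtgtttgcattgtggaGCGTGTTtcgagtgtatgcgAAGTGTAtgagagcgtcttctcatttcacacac
rpl-20: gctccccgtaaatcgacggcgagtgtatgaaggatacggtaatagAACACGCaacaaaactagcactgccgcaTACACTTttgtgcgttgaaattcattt
rpl-35: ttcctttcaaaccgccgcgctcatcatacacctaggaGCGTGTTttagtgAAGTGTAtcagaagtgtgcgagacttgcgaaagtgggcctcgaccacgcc

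AACACGC and AAGTGTA were the only 7-base words, counted on both strands, that all 4 windows held. They were picked after these windows had been read, so their presence in the 4 is no finding. The next 4 genes in signal (rpl-12, rpl-41.2, rpl-7A and rpl-5) shared 0 words of 7 bases. The centre of AACACGC lay within 10 bp of the summit at all 4 genes: 7 bp upstream of it at rpl-3, 1 bp downstream at rpl-15, 1 bp upstream at rpl-20 and 10 bp upstream at rpl-35. That of AAGTGTA lay 44 bp upstream of the summit at rpl-3 and 21, 27 and 3 bp downstream of it at rpl-15, rpl-20 and rpl-35. The words pointed the same way at rpl-3 and opposite ways at the other 3 genes, and their starts were 37, 20, 28 and 13 bp apart in the same gene order. The distance and the orientation of the pair were thus not fixed. A 6-base part of the second word, AGTGTA, occurred 2 times at rpl-3, rpl-15 and rpl-20 and 1 time at rpl-35, on either strand.

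Outside the 4 genes the pair was rare. Of the 1418 other nuclear IDR summits, 3 (0.212%) held both words within 100 bp, against 2 of 28559 lower pooled summits (0.007%). In windows of 200 bp the IDR summits with both words were the same in number, and the lower pooled summits with both were 11 (0.0385%). Of the 3 other IDR summits with both words, 1 lay on X at no protein-coding start, with a signal of 112. The other 2 were at genes outside the ribosome and are shown for comparison with the 4 above. The first is at cdc-48.1 (WBGene00007352, chrII:10560036-10563407, minus strand), an AAA ATPase that extracts ubiquitinated proteins, and the second at cox-5A (WBGene00012553, chrIII:12905491-12906619, plus strand), a subunit of cytochrome c oxidase. Their windows are chrII:10563510-10563609 (minus) and chrIII:12905149-12905248 (plus), with the same words in capitals.
cdc-48.1: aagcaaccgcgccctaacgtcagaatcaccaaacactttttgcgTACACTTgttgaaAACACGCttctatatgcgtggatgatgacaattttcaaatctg
cox-5A: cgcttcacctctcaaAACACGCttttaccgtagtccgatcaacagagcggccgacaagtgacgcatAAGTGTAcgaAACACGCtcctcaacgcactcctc

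The peak at cdc-48.1 ranked 39 with a pooled signal of 401, and had 201 in replicate 1 and 199 in replicate 2. Its summit lay 153 bp upstream of the start. The peak at cox-5A ranked 294 with a pooled signal of 206, and had 94.2 in replicate 1 and 111 in replicate 2, 292 bp upstream of its start. Both summits were thus upstream of a start, as at the 4 large-subunit genes and at 82.6% of the 723 genes with an IDR peak.

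As examples, the windows of 2 large-subunit genes with weaker IDR peaks are shown in lower case throughout, since they hold neither word. They are chrII:8569482-8569581 (plus strand) for rpl-5, which overlaps the annotated non-coding RNA genes F54C9.16 and F54C9.17, and chrX:2242995-2243094 (minus strand) for rpl-11.2.
rpl-5: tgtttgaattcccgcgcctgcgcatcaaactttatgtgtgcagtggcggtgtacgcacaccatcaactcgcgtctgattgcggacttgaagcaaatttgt
rpl-11.2: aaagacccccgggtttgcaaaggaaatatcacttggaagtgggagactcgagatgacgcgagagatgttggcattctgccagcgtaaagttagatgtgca

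Neither word was present at the summit of any of the 10 large-subunit genes with weaker IDR peaks. Over the 648 IDR summits at protein-coding starts, AACACGC was in 3.7% and AAGTGTA in 2.31% of windows of 100 bp. Absence of both words was thus usual and is no trait of the 10 genes. The signals of these 10 genes had a median of 118 (105 to 161). For the 4 with both words, which were chosen for their signal, the median was 378 (306 to 856). The 3 other summits with both words had a median signal of 206 (112 to 401), and 1 of them was among the first 100 peaks. The median was 135 for the 41 nuclear IDR summits with a single word, of which 3 were among the first 100, and 140.0 for the 1374 with neither, of which 74 were. Most nuclear summits among the first 100 thus held neither word as an exact match.

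**Figure D3:**
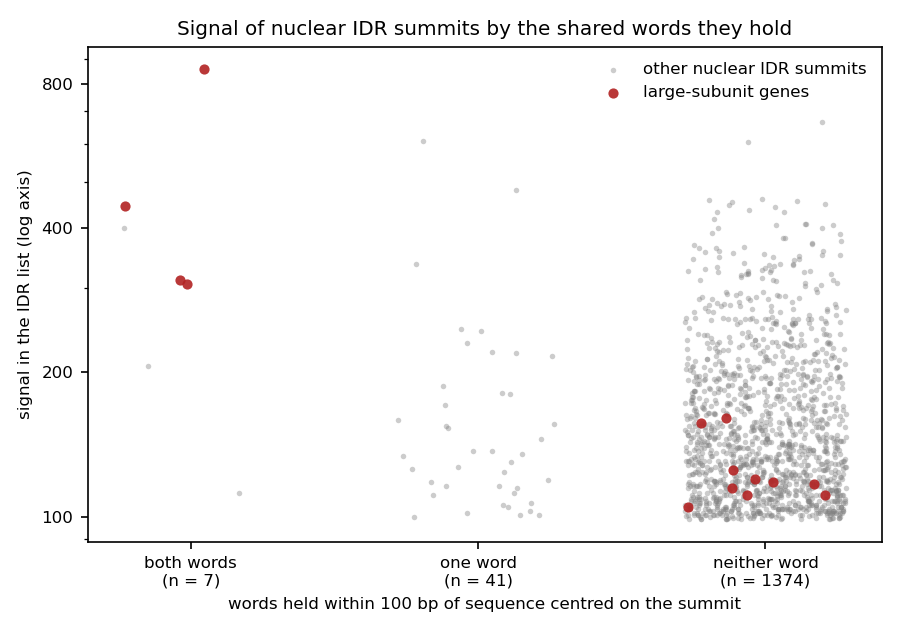
Signal in the IDR list (vertical log axis, authors' value) of 1422 nuclear IDR summits, by whether the 100 bp centred on the summit held both words, a single word or neither. Each point is a summit, spread sideways for legibility. The 4 large-subunit genes with both words lie at 306 to 856, and the 10 with neither at 105 to 161.

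The words were also looked for across the whole start windows of 1501 bp, whatever the peaks. Both words lay within 100 bases of each other at the 4 genes from which they were taken and at 0 of the other 46 large-subunit genes. Over all nuclear protein-coding genes this held for 65 (0.325%), and nothing can be read from the 4 beside it. Without the genes whose start window holds a summit of the 4, 59 remained, of which 3 (5.08%) had an IDR peak at their start. At 8 large-subunit genes exactly 1 of the words was present in the start window (rpl-5, rpl-18, rpl-21, rpl-28, rpl-30, rpl-31, rpl-33 and rpl-38), and of these rpl-5 and rpl-31 had an IDR peak. With or without the other word, AACACGC occurred in 10.3% and AAGTGTA in 23.4% of all start windows. Each occurred in 16% of the start windows of the 50 large-subunit genes. A match in sequence is a description and does not show which protein was bound.

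Of 6 further words searched on both strands, none was common to the summits of the 14 genes. CACGTG was in the 100 bp window of rpl-31 only, against 4.63% of the 648 IDR summits at protein-coding starts. TGATAA, the core bound by GATA factors, was in that of rpl-24.2 only (10.6% of the 648 summits), and AGGTCA, an element bound by many nuclear receptors, in that of rpl-7 only (4.01%). GAGAGAG, CTGCGTCT and TTTTTTT were in none of the 14 windows, against 9.72%, 5.56% and 6.94% of the 648. In windows of 200 bp TTTTTTT was in 6 of the 14, against 22.2% of the 648, and the other counts were the same. In the start windows of all nuclear protein-coding genes, the shares were 25.6% for CACGTG, 81.6% for TGATAA, 35.3% for AGGTCA, 22.1% for GAGAGAG and 94.5% for TTTTTTT, and CTGCGTCT was in 2220 of the 19973. The GC content of the 14 windows was 50.2% ± 7.19 (SD, n = 14), against 49% ± 7.89 for the 648.

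By role, the stalk that recruits translation factors had an IDR peak at 2 of its 4 genes. At rpl-12 (WBGene00004424, chrIV:13239587-13240651), whose product forms the base of the stalk, the pooled signal was 161 (rank 537), with 93.4 in replicate 1 and 69.5 in replicate 2. The summit lay 34 bp downstream of a start, in the 5′ UTR of rpl-12 itself. At rla-1 (WBGene00004409), which encodes an acidic stalk protein, it was 111 (rank 1153), with 77.2 in replicate 1 (rank 848) and 36.9 in replicate 2 (rank 2191). The scaffold of the stalk, rla-0, had a pooled signal of 26.2, with 30.4 in replicate 1 and no peak in replicate 2. The second acidic stalk gene, rla-2, had no peak at its start in any list. Signals therefore differed widely among proteins of the same stalk.

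The 5S RNA particle had an IDR peak at 2 of 3 genes. At rpl-5 (WBGene00004416, chrII:8569927-8571100), which binds the 5S RNA, the pooled signal was 119.8 (rank 990), with 66.5 in replicate 1 and 50.9 in replicate 2, and the summit lay 395 bp upstream. Its partner in the particle is encoded by rpl-11.1 and rpl-11.2. At rpl-11.2 (WBGene00004423, chrX:2241738-2242618) the pooled signal was 115 (rank 1090), with 52.6 in replicate 2 (rank 1054), and no peak of replicate 1 overlapped it. Its summit lay 427 bp upstream of the start. The only start peak of rpl-11.2 in replicate 1 was another one, 381 bp downstream, with a signal of 12 (rank 25255). This was the only large-subunit IDR peak without an overlapping peak in a replicate, and it rests on replicate 2. Of all 1441 IDR peaks, 17 had no overlapping peak in replicate 1 and 1 had none in replicate 2. At rpl-11.1 the pooled signal was 68, with 38.5 in replicate 1 and 26.9 in replicate 2, below the IDR list. The coding sequences of rpl-11.1 and rpl-11.2 were identical at 84.2% of 588 bases.

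Near the catalytic centre, rpl-3 stood apart from the other 2 genes. Pooled signals were 69.7 at rpl-2, which supports the centre, and 35.5 at rpl-10, which is added late in assembly, against 856 at rpl-3. Of the 9 genes with products at the exit tunnel, rpl-35 and rpl-31 had an IDR peak. At rpl-31 (WBGene00004445) the pooled signal was 111 (rank 1147), with 63.0 in replicate 1 and 50.8 in replicate 2. The other 7 had pooled signals of 86.3 (rpl-19), 80.3 (rpl-25.2), 71.8 (rpl-4), 58.6 (rpl-39), 47.8 (rpl-17), 46 (rpl-26) and 35.7 (rpl-25.1). Neither gene of the bridges to the small subunit had an IDR peak, with 86.2 at rpl-30 and 72.7 at rpl-24.1.

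Among the other structural proteins, 7 of 28 genes had an IDR peak. After rpl-15 and rpl-20 came rpl-41.2 (WBGene00023068), which encodes the smallest protein of the subunit, with a pooled signal of 157 (rank 568), 75.7 in replicate 1 and 85.4 in replicate 2. Its coding sequence differed from that of rpl-41.1 at a single position, with 65 of 66 bases identical, whereas rpl-41.1 had a pooled signal of 49.5. How multi-mapping reads were handled is not known here. At rpl-7A (WBGene00004419, chrIV:4389143-4390590) the pooled signal was 125 (rank 921), with 80.8 in replicate 1 (rank 777) and 43.0 in replicate 2 (rank 1606), and the summit lay 31 bp upstream. The remaining IDR peaks of this group had pooled signals of 118 (rank 1024) at rpl-32 (WBGene00004446; 75.0 in replicate 1, 46.4 in replicate 2), 117 (rank 1047) at rpl-24.2 (WBGene00004437; 57.3 and 67.6 in the same order) and 105 at rpl-7 (WBGene00004418; 61.5 and 44.7). The summit at rpl-7 lay 330 bp upstream. The peak at rpl-24.2 lay 143 bp upstream in an intron of C03D6.1. The product of rpl-24.2 is related to a ribosome assembly factor. The gene was counted here by its symbol and is not among the 18 assembly factors. Of the 8 large-subunit genes that host a snoRNA gene, 3 had an IDR peak (rpl-15, rpl-7A and rpl-7), against 11 of the 42 that host none.

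The IDR threshold fell inside a run of large-subunit genes. The last gene inside was rpl-7, with a signal of 105 and rank 1279. Just outside were rpl-1, with 98.5 (rank 1453), and rpl-43, with 98.3 (rank 1460), against a lowest signal of 98.9 in the IDR list. In the replicates rpl-1, which forms the mobile L1 stalk by the tRNA exit site, had 65.9 in replicate 1 and 43.9 in replicate 2, and rpl-43 had 54.8 in replicate 1 and 48.4 in replicate 2. Their summits lay 395 bp upstream at rpl-1 and 353 bp downstream at rpl-43, 78 bp past its 3′ end. The next were rpl-19, rpl-30 and rpl-29, with pooled signals of 86.3 (rank 1832), 86.2 (rank 1834) and 82.1 (rank 1985). For rpl-19, at the exit tunnel, the replicates gave 44.4 (replicate 1) and 36.7 (replicate 2), with the summit 257 bp downstream in its own coding exon, and for rpl-29 they gave 47.9 and 42.0 in the same order, with the summit 127 bp downstream in its 3′ UTR. For rpl-30 they gave 60.5 and 48.4, the second from a different peak, while the replicate 2 peak that overlaps the pooled one had 28.9. At rpl-30 the summit lay 984 bp upstream in an intron of pab-1, the gene for the poly(A)-binding protein. The values of rpl-1 thus overlapped those of the weaker genes in the list in both replicates. Those of rpl-43 did so in replicate 2. In replicate 1 rpl-43 was below every listed gene, the next being rpl-24.2 with 57.3, except rpl-11.2, whose replicate 1 peak is a different one.

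The other genes with a pooled peak were, from 80.6 down to 23.8, rpl-14, rpl-16, rpl-22, rpl-36.A, rpl-33, rpl-34, rpl-28, rpl-23, rpl-21, rpl-27, rpl-9, rpl-36 and rpl-13. Of the 6 genes with no pooled peak at the start, rla-2, rpl-37 and rpl-42 had none in any list. The others had weak replicate peaks, with 33.3 in replicate 1 and 12.6 in replicate 2 at rpl-18, 14.1 in replicate 2 at rpl-6, which ranked 8257 in replicate 1, and 10.1 in replicate 2 alone at rpl-38. Across the 44 genes with a start peak in both replicates, the Spearman rho of the replicate signals was 0.663, against 0.634 over 6193 genes. This is a description across genes that share the same 2 libraries. Of the genes outside the IDR list, rpl-25.2 stood out with 52.3 in replicate 2 (rank 1065) and 21.3 in replicate 1 (rank 10462).

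**Figure D4:**
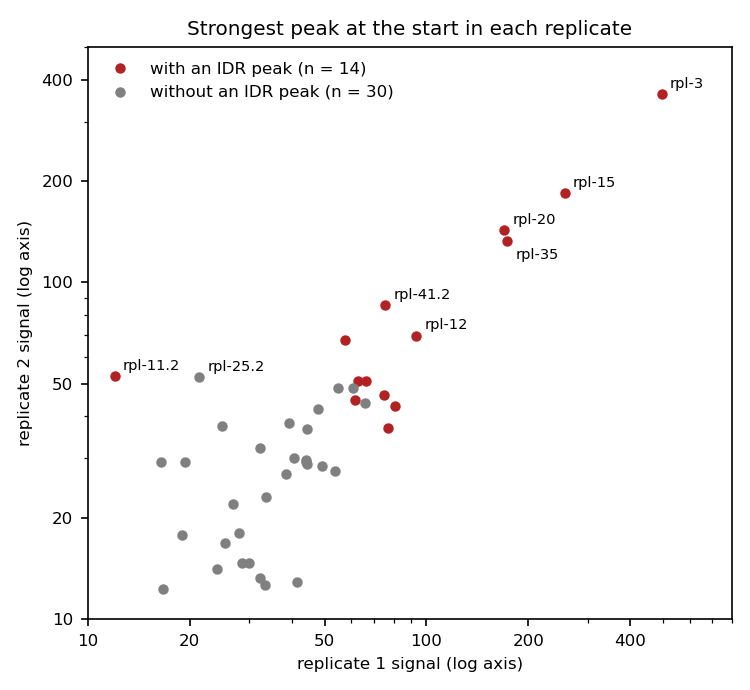
Signal of the strongest peak in the start window in replicate 1 (horizontal log axis) and replicate 2 (vertical log axis) for 44 large-subunit genes with a peak in both. The 4 strongest genes lie together at the top of both axes, and rpl-11.2, whose replicate 1 peak is a different one, lies at 12 in replicate 1 and 52.6 in replicate 2.

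The position of the peaks differed from that at other genes. The summit lay upstream of the start at 9 of the 14 large-subunit genes (64.3%), against 597 of the 723 (82.6%). The median offset was -205 bp (-448 to 443), against -266 bp, with negative values upstream. From the summits of replicate 1 alone the median of the 14 was -80.5 bp, and from those of replicate 2 alone -237 bp. The replicate 1 median takes in the different, weak peak of rpl-11.2, 381 bp downstream with a signal of 12, so it is not a median of the same 14 peaks. More than 400 bp downstream of the start lay 4 of the 14 summits (28.6%), against 28 of the 723 (3.87%). These were at rpl-41.2 (443 bp), rpl-32 (440 bp), rla-1 (429 bp) and rpl-31 (413 bp), and no summit of the 14 lay between 34 and 413 bp downstream.

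These 4 downstream summits were near the far end of the gene. The median length of the large-subunit genes was 754 bp, against 2027 bp for all nuclear protein-coding genes. The summit lay 93 bp past the annotated 3′ end of rpl-41.2, in a coding exon of the neighbouring gene zig-7, and 108 bp past that of rpl-32, in a coding exon of chmp-7. At rpl-31 it lay 158 bp past the 3′ end, outside any protein-coding gene, and at rla-1 it lay in a coding exon 60 bp before the 3′ end. A summit within 200 bp of the gene's 3′ end, a limit chosen after these values were seen, was found at 4 of the 14 large-subunit genes (28.6%), against 18 of the 723 (2.49%). In the pooled list it was found at 8 of 44 (18.2%), which adds rpl-11.1, rpl-29, rpl-34 and rpl-43, against 179 of 8390 (2.13%). In the small cytosolic subunit, with a median gene length of 756 bp, it was found at 1 of 9 genes with an IDR peak and at 1 of 30 in the pooled list (3.33%). These counts take only the strongest start peak of each gene. Further IDR summits lay within 200 bp of the 3′ end at rpl-3, rpl-12, rpl-7A and rpl-35, whose strongest start peaks lay elsewhere. The same held at rpl-4, rpl-17 and rpl-27, which had no IDR peak at the start. No count of such further summits was made over all genes. The start window reaches 500 bp downstream, and at rpl-41.2 and rla-1 it takes in the 3′ end of the gene. At rpl-31 and rpl-32, with 2 annotated starts each, it does so only from an inner start. Their summits lay 913 and 696 bp from the outermost start. The 4 downstream IDR peaks thus cannot be assigned to the start rather than to the end or to the neighbour.

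**Figure D5:**
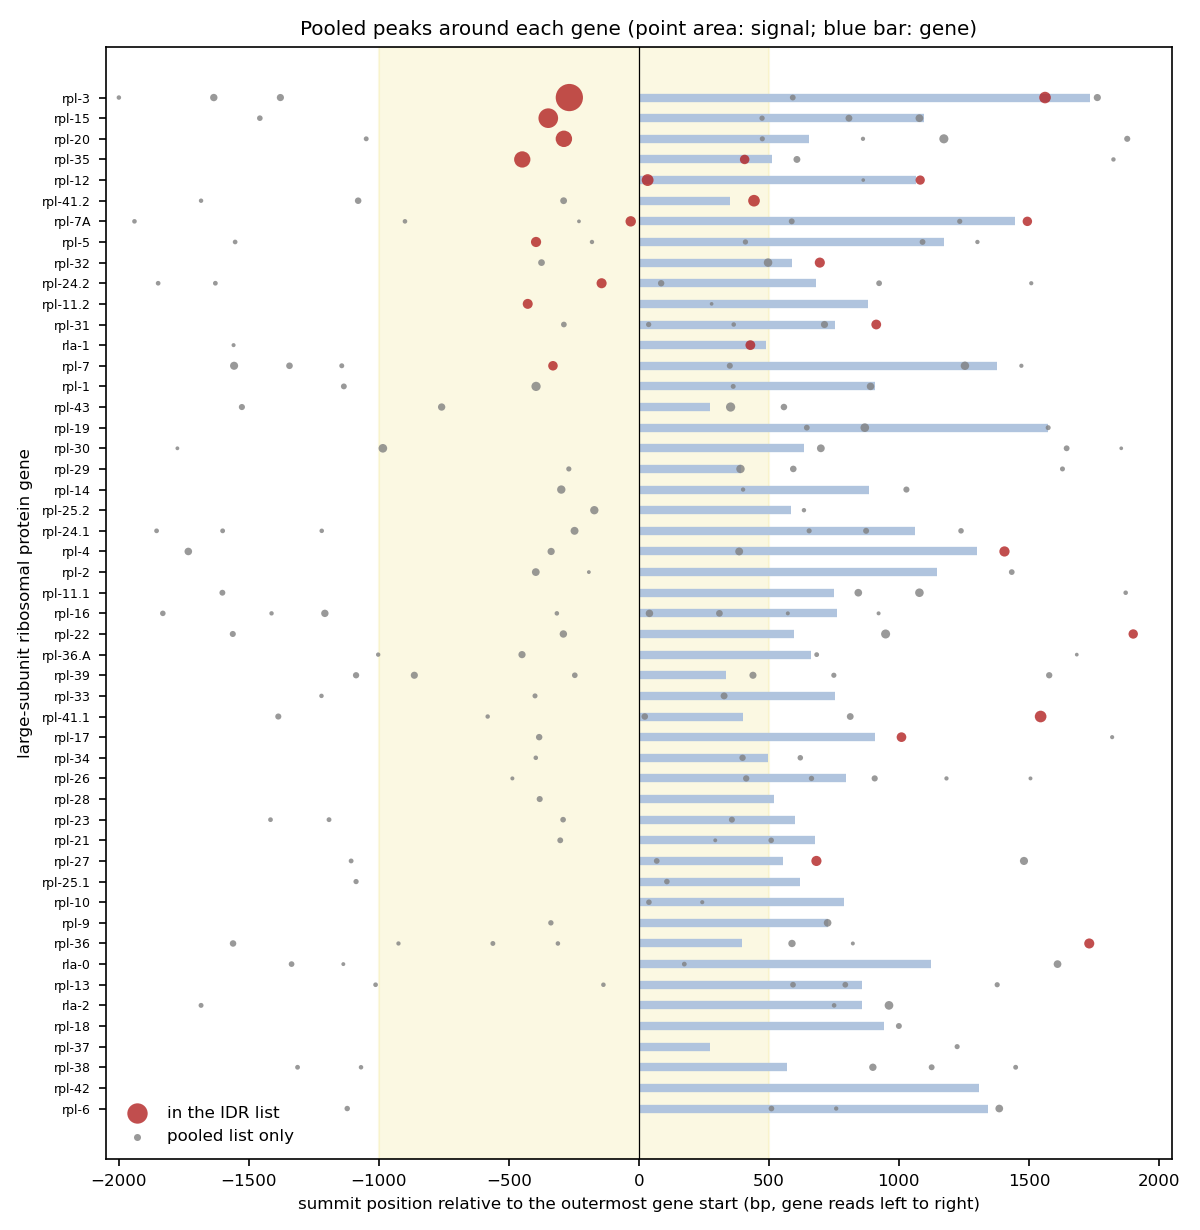
Summits of pooled peaks (points, area by signal) within 2000 bp of the outermost start of each large-subunit gene, in bp along the direction of the gene, with the gene as a blue bar and the start window of that start shaded. Strong upstream points stand at rpl-3, rpl-15, rpl-20 and rpl-35, and the points of rpl-41.2, rpl-32, rpl-31 and rla-1 stand near or past the end of the bar. Offsets in the text are from the annotated start whose window holds the summit, so they differ where a gene has several starts.

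At 6 of the 14 genes the same summit also lay in the start window of a second protein-coding gene, in each case a neighbour on the opposite strand. No such count was made over all genes with an IDR peak, so how usual this is cannot be said. The pairs were rpl-15 with K11H12.8, rpl-20 with Y17G9B.5, rpl-12 with lin-54, rpl-7A with set-21, rpl-5 with col-38 and rpl-7 with rab-11.1. Among these neighbours, lin-54 encodes a DNA-binding subunit of the DRM complex, col-38 a cuticle collagen and rab-11.1 a GTPase of membrane recycling. The summit was nearer to the large-subunit start in 5 pairs. The exception was rpl-20, whose start was 288 bp from the summit, while that of Y17G9B.5 was 174 bp from it. At rpl-3 and rpl-35, by contrast, the start window of no second protein-coding gene held the summit.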

How the data were processed

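The authors deposited narrowPeak lists on ce11 and ce10, per the text records with the samples: 1 per replicate, 1 of both replicates together, and 1 of peaks that passed an IDR threshold. The deposited signal (narrowPeak column 7) was used as given, to rank and describe peaks within a list. No source used here gives the aligner, the peak caller, the IDR threshold or the handling of multi-mapping reads, and read depth is unknown. On ce11 the IDR list held 1441 peaks, the pooled list 30000, replicate 1 30000 and replicate 2 26622. The IDR peaks are the pooled peaks of highest signal. On ce10 only the number of IDR peaks, 2232, was used.

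Summits were placed against all transcript starts of protein-coding genes in Ensembl release 115 (WBcel235), with chromosome sequence of the same assembly from RefSeq; all peaks ended within its chromosomes. Scripts used Python 3.11.15, pandas 2.3.3, numpy 2.4.6 and scipy 1.17.1, and the placement of summits was tested on simulated peaks. The genes, lists, roles and words were chosen with earlier results of these data known. All 50 genes were accounted for. Those with an IDR peak were given with signals, rank and offset, as were the 5 with the next highest pooled signals. Neighbours were named where they shared a summit. The words AACACGC and AAGTGTA, the genes that hold them, their 200 bp windows, the 3′ end limit and the count with overlapping replicate peaks were chosen after the values were seen. With 1 group, no statistical test was made.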

Additional observations from a re-analysis of the deposited data

How the results depend on the processing

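The count of 14 large-subunit genes with an IDR peak at the start was between 10 and 21 in all settings tried but 1. With the upper part of the IDR list alone (720 peaks) it was 6, against 1.69% of all genes. With a window from 500 bp upstream to the start it was 10, against 2.09%, and rla-1, rpl-31, rpl-32 and rpl-41.2 were lost; the median signal was then 143 in place of 122. With as many pooled peaks as the ce10 IDR list holds it was 21, against 5.76%. With each replicate alone it was 14. The median offset of -205 bp was between -237 and -80.5 bp when a replicate was left out. The value of -80.5 bp, from replicate 1, takes in a different and weak peak at rpl-11.2. The count of 10 genes among the strongest peaks of both replicates was 5 with 720 peaks each (1.21% of all genes) and 18 with 2882 (4.9%). The word TTTTTTT was in 0 of 14 windows of 100 bp and in 6 of 200 bp. With windows of 200 bp, chosen after seeing the data, both AACACGC and AAGTGTA were still in 7 nuclear IDR windows, 4 of them at large-subunit genes, but in 11 lower pooled windows in place of 2. The cause of these changes was not tested. No paired analysis was possible because there is a single group of 2 replicates. Read depth is unknown, so no counting error can be given for a signal.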
